A study of Mus musculus with 27 samples.

Results

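The genes described here are 34 mouse genes of the hypoxia response and of glycolysis, chosen by name, with earlier results of these data known, and found by their Entrez identifiers among the 24454 identifiers of the expression table. They were measured by RNA-sequencing in 9 tumour cell lines, labelled as epithelial, each without cytokine, with Wnt3a (100 ng/ml, 3 days) and with TGFβ (2 ng/ml, 4 days), which gave 27 libraries in 12 groups. The untreated libraries are labelled with 4 days, so each Wnt3a change also compares a culture of 3 days with 1 of 4 days. All lines came from thoracic mammary tumours of females aged 12 weeks on the FVB/N background that express the polyoma middle T oncogene from the MMTV promoter (MMTV-PyMT), so every group carries this oncogene. The genotypes differ in Bcl9 and Bcl9L, coactivators that bind Pygopus through the HD1 domain and β-catenin through the HD2 domain. ΔHD1/fl (2 lines) and ΔHD2/fl (2 lines) carry a knock-in allele lacking that domain beside a floxed wild-type allele of both genes. In ΔHD1/- (2 lines) and ΔHD2/- (3 lines), labelled as recombined, the floxed alleles had been removed in culture with an adenovirus that expresses Cre and GFP, and infected cells were sorted for GFP. Lines of 1 genotype are named here by their replicate number. Per the labels they derive from 2 mice of that genotype, although ΔHD2/- has 3 lines, so the spread within a group holds the differences between lines. Before use, the cultures had been depleted of fibroblasts with trypsin. None of the groups analysed here carried wild-type alleles alone.

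Cells sense oxygen through the HIF transcription factors. A HIF alpha subunit (Hif1a or Epas1) is hydroxylated by the prolyl hydroxylases Egln1 and Egln3 when oxygen is present and is then destroyed. When oxygen is short, it pairs with Arnt and binds a short DNA core in the promoters or enhancers of its targets. The targets include growth factors for blood vessels, glucose transporters, most enzymes of glycolysis, and genes that hold back pyruvate entry into mitochondria or mark mitochondria for removal. Glycolysis converts glucose to pyruvate, and many tumour cells use it heavily also when oxygen is present. The HIF alpha proteins are controlled mostly after translation, which RNA levels do not show. Oxygen was not a variable of this design.

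Depth ran from 21.86 to 33.69 M reads per library. A listed 0 allows up to 3 reads, or 0.089 to 0.137 CPM (CPM, reads for each 1 M reads assigned to genes), and this covers counting error only. Of the 34 members 33 reached 1 CPM in at least 2 libraries and were tested. The exception was Slc2a3, a neuronal-type glucose transporter, at 0.222 CPM or less in every untreated line. The epithelial markers Cdh1, Epcam, Krt8, Krt18, Krt5 and Krt14 summed to 358 to 19528 CPM in the untreated lines. In ΔHD1/fl line 2 and ΔHD1/- line 2, however, Cdh1 was at 0.522 and 0.237 CPM and Epcam at 0.0746 and 0 CPM. Krt18 and Krt14 were also below the 7 other lines in both, Krt5 was not, and Krt8 was at 0.336 CPM in the first and at 1089 CPM, within the range of the others, in the second. The fibroblast marker Col1a1 was at 659 and 2603 CPM there, against 0.837 to 14.8 CPM in the 7 other lines. Col1a2, Pdgfra, Pdgfrb and, at 0.858 and 1.51 CPM, Dcn were also above the others, and Lum was listed at 0 in every untreated line. The leukocyte marker Ptprc stayed at or below 0.252 CPM in every library. Of 4 immune and endothelial markers 3 were tested, and 1 was called with TGFβ: Cdh5, an endothelial cadherin (log2 change 1.20 ± 0.29 SE; limma adjusted p 0.00967). Cdh5 was at 0.407 CPM or less without cytokine and at 0.34 to 6.32 CPM with TGFβ. It reached 1 CPM only in TGFβ libraries, so its call is a description of these values. Pecam1 was lower in 9 of 9 lines (-0.37; limma adjusted p 0.294) and Cd68 in 7 of 9 (-0.91; 0.0232), neither called. Under all treatments ΔHD2/- lines 2 and 3 nearly coincided (correlation of log2 values across genes 0.993 to 0.997, against 0.807 to 0.957 for the other pairs of 1 group), so mean changes with a cytokine that are printed below and moved by over 1.5 times without this pair, or lost an adjusted p of 0.05 or less, are given both ways, apart from changes under 0.1. The cytokines acted on their known targets: the TGFβ targets Fn1, Itga5 and Tnc rose with TGFβ (3 of 3 called, each higher in 9 of 9 lines), and of 3 Wnt targets Axin2 rose with Wnt3a, from 0.131 to 2.97 CPM without cytokine to 13.5 to 80.8 CPM, whereas Notum (2.16) was called only with the block described below and Rnf43 (0.49) was not called.

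The first question was how high these genes stood in the lines before any cytokine. Per kilobase of annotated exon, the highest untreated levels were those of Pkm (pyruvate kinase, which makes pyruvate), Ldha (lactate dehydrogenase A, which turns pyruvate into lactate) and Aldoa (the aldolase that splits the hexose), with medians over the 9 lines of 1617, 800.0 and 610.0 CPM per kilobase. By this length-corrected level the same isozyme led in all 9 untreated lines for Hk1 over Hk2, Aldoa over Aldoc, Eno1 over Eno2, Ldha over Ldhb, Pfkl over Pfkm and over Pfkp, and Egln1 over Egln3, whereas Pfkfb3 stood above Pfkfb4 in 8 of 9. The median for Hk1 was 75.2 CPM per kilobase and that for Hk2 8.84. The order of the HIF alpha subunits was less even: Hif1a stood above Epas1 in 7 of 9 untreated lines and in 9 of 9 with TGFβ. Gapdh, the most used reference transcript, was listed at only 2.41 to 6.86 CPM; it has many near-identical copies in the mouse genome, and the authors kept uniquely mapped reads only, so its level is uncertain, as are those of other glycolytic genes with such copies.

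The members' levels varied with the line and with the treatment. Over the 27 libraries, differences between lines took a median of 70.5% of a member's sum of squares on the log2(CPM + 1) scale (range 30.3 to 95.5%), beside 66.1% for all genes tested, and differences between treatments 13.4% beside 10.7%. With 9 lines and 3 treatments the lines take the larger share also where neither has an effect, so each share is read against that of all genes. The untreated levels spanned a median log2 range of 1.99 over the 9 lines, against 1.25 for all genes, and 16 of 33 members spanned more than 2. Among members above 1 CPM in every line, those with the least spread were Pkm (2898 to 5448 CPM, log2 range 0.91), Egln1 (78.2 to 156 CPM, 0.99), Gpi1 (336 to 670 CPM, 0.99) and Eno1 (276 to 571 CPM, 1.05). Among all 33 tested members those with the most were Epas1, Car9, Aldoc, Ldhb, Bnip3, Eno2 and Pdk1, with log2 ranges of 6.64 to 4.05. These shares and ranges are descriptions, because each line is 1 culture per treatment.

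**Figure D1:**
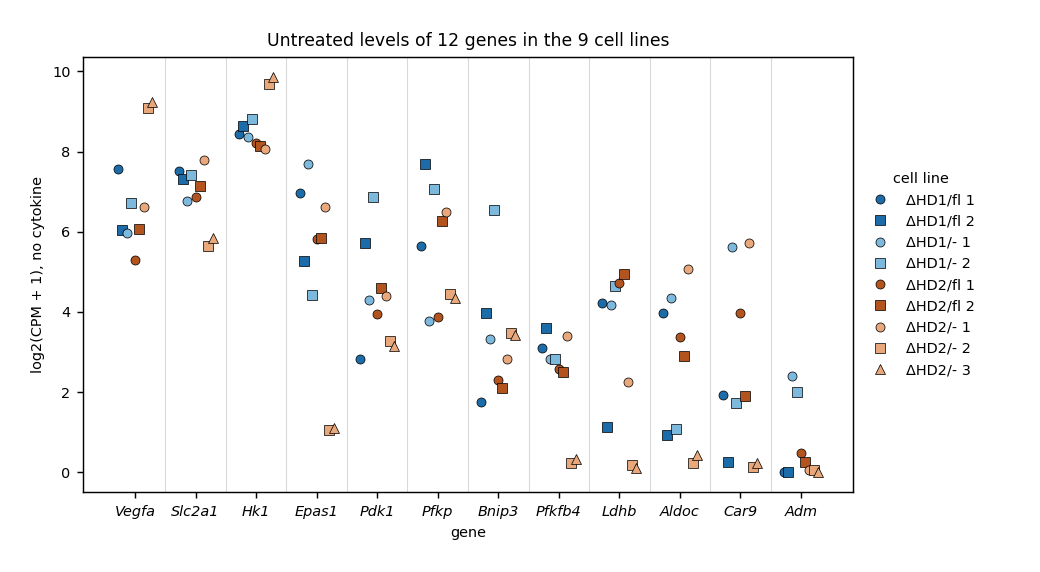
Untreated level (log2(CPM + 1), vertical axis) of 12 members in the 9 cell lines, 1 point per library, with colour for genotype and symbol for line number. ΔHD2/- lines 2 and 3 sit above all other lines for Vegfa and Hk1 and below them for Epas1, Pfkfb4, Ldhb, Aldoc and Car9, and ΔHD1/- line 2 holds the highest Bnip3 and Pdk1.

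The ends of many of these ranges were set by ΔHD2/- lines 2 and 3. For 15 of 33 tested members (45.5%) both lines lay outside the range of the 7 others, 11 below and 4 above, beside 30.8% of all genes tested. The 4 members above the other lines were Vegfa, Hk1, Ndrg1 and Ddit4. Vegfa, the main growth factor for blood vessels, was at 188 and 64.4 CPM in ΔHD1/fl, 62 and 105 in ΔHD1/-, 38.4 and 65.7 in ΔHD2/fl and 96.5, 540 and 604 in ΔHD2/- lines. Hk1, the housekeeping hexokinase, was at 348 and 398 CPM in ΔHD1/fl, 327 and 449 in ΔHD1/-, 294 and 280 in ΔHD2/fl and 267, 820 and 929 in ΔHD2/- lines. Both genes were therefore highest in the same pair of lines, by a wide margin for Vegfa.

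The 11 members below the other lines were Epas1, Slc2a1, Aldoc, Pfkfb3, Pfkfb4, Pgam1, Eno2, Ldha, Ldhb, Ankrd37 and Car9. Slc2a1, the general glucose transporter, was at 182 and 158 CPM in ΔHD1/fl, 108 and 171 in ΔHD1/-, 115 and 139 in ΔHD2/fl and 219, 48.7 and 56.1 in ΔHD2/- lines. Ldhb, the lactate dehydrogenase subunit that favours pyruvate formation, was at 17.8 and 1.19 CPM in ΔHD1/fl, 17 and 24.2 in ΔHD1/-, 25.5 and 29.8 in ΔHD2/fl and 3.76, 0.135 and 0.0837 in ΔHD2/- lines. ΔHD2/- line 1 and ΔHD1/fl line 2 were also low for Ldhb, so its low levels were not limited to the similar pair. Pfkfb4, which sets the level of an activator of phosphofructokinase, was at 0.18 and 0.251 CPM in ΔHD2/- lines 2 and 3 against 4.63 to 11 CPM in the others.

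ΔHD1/fl line 2 and ΔHD1/- line 2 were the highest for Pdk1, Bnip3 and Pfkp, which are named after their values were seen. The same held for Hif1a, Pfkm, Pgk1, Pgam1, Ankrd37 and Eno2, and the share over all genes was not counted. Pdk1, the kinase that switches off pyruvate dehydrogenase, was at 6.04 and 51.2 CPM in ΔHD1/fl, 18.7 and 115 in ΔHD1/-, 14.3 and 23.2 in ΔHD2/fl and 20, 8.6 and 7.87 in ΔHD2/- lines. Bnip3, a mitochondrial protein of mitophagy, was at 2.38 and 14.8 CPM in ΔHD1/fl, 8.98 and 91.9 in ΔHD1/-, 3.92 and 3.29 in ΔHD2/fl and 6.03, 10.1 and 9.75 in ΔHD2/- lines. These are the lines with little Cdh1 and with Col1a1. Pfkp, the platelet-type phosphofructokinase, was at 48.9 and 205 CPM in ΔHD1/fl, 12.6 and 132 in ΔHD1/-, 13.7 and 75.7 in ΔHD2/fl and 89.3, 20.7 and 19.2 in ΔHD2/- lines. The part of the epithelial and fibroblast markers in these levels was not tested.

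The tested question was whether a recombined genotype differed from its fl genotype without cytokine. In ΔHD1/- against ΔHD1/fl lines 1 of 33 members was called (3.03%, beside 0.0678% of all genes), Adm. Adm, a vasodilator peptide induced by hypoxia, had 0 reads in both ΔHD1/fl lines and 4.32 and 3.03 CPM (101 and 102 reads) in the ΔHD1/- lines, at least 29.5-fold higher against a floor of 3 reads per library. The log2 difference was 2.21 ± 0.21 (SE; limma adjusted p 9.7e-05), a fitted value that depends on the pseudocount. In the remaining lines it was at 0 to 0.388 CPM. Adm reached 1 CPM only in ΔHD1/- libraries and so passed the filter through the group where it is high, which makes its call a description of these values. The call was lost with the compared groups alone and in edgeR on recovered reads (adjusted p 0.167), and it was kept without any 1 of the 9 lines. Egln3 (log2 difference 1.07), Ddit4 (1.14) and Egln1 (0.52) had unadjusted p under 0.05 in limma, with adjusted p of 0.822, 0.771 and 0.95. Like Adm, Egln3 reached 1 CPM only in ΔHD1/- libraries, so nothing is read from its p.

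In ΔHD2/- against ΔHD2/fl lines 0 of 33 members were called by limma and 0 by edgeR, beside 0.55% of all genes in limma, whereas 5 members in limma and 7 in edgeR had an unadjusted p under 0.05. The 5 were Vegfa (log2 difference 2.63 ± 0.76 SE; limma adjusted p 0.2), Ldhb (-3.99 ± 0.99; 0.107), Hk1 (1.03 ± 0.42; 0.486), Ndrg1 (1.55 ± 0.50; 0.316) and Pfkfb3 (-0.82 ± 0.35; 0.524). For all 5, ΔHD2/- line 1 stood nearer to the ΔHD2/fl lines than lines 2 and 3 did. Without line 1 the count was 7 (21.2%, beside 5.63% of all genes; Epas1, Vegfa, Slc2a1, Hk1, Pfkfb3, Pfkfb4 and Ldhb), and the compared ΔHD2/- group was then the similar pair alone. Leaving out ΔHD1/fl line 1 or line 2, which enter this contrast through the shared spread only, called Ldhb, and leaving out any other line called 0.

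The next question was what TGFβ, which drives epithelial cells towards a mesenchymal state, did to these genes within each line. Of 33 members 1 was called over the mean of the 4 genotypes (3.03%, beside 5.42% of all genes): Vegfa, which rose. The 3 libraries of a line shared their deviations from the group means, and with cell line as a replicate block 6 members were called (18.2%, beside 8.92% of all genes), Vegfa higher and Epas1, Pfkp, Aldoc, Pdk1 and Car9 lower. After median-of-ratios scaling the block called 5 (15.2%, beside 8.54%), Ndrg1 added and Pfkp and Car9 lost to changes of -0.91 and -0.98. Without the fold limit 8 members passed without the block (24.2%, beside 16.8% of all genes), the further 7 with changes under 1 on the log2 scale: Ndrg1 higher, and Adm, Gpi1, Tpi1, Pgk1, Pkm and Ldha lower. After scaling without the block, Vegfa, Ndrg1 and Adm still had a limma adjusted p of 0.05 or less. Ddit4 did so newly (0.71, adjusted p 0.0282). Gpi1, Tpi1, Pgk1, Pkm and Ldha did not (0.0526 to 0.161), so the members left in that fit were mostly higher. With the block and scaling Tpi1, Pgk1, Pkm and Ldha, all lower, had limma adjusted p of 0.00382 to 0.0238, and Gpi1 0.0906. Without ΔHD2/- lines 2 and 3, and without the block, all 7 further members were above 0.05, from 0.0512 for Ndrg1 to 0.153 for Gpi1. All genes shifted by a median of -0.16 under TGFβ (-0.02 after median-of-ratios scaling), so a change has to be read against that value. Of the 719 genes called, 34.4% were higher, and of the 634 called after scaling, 50.2%. The members' median change was -0.34. For each gene below, the direction given held under both scalings unless stated.

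**Figure D2:**
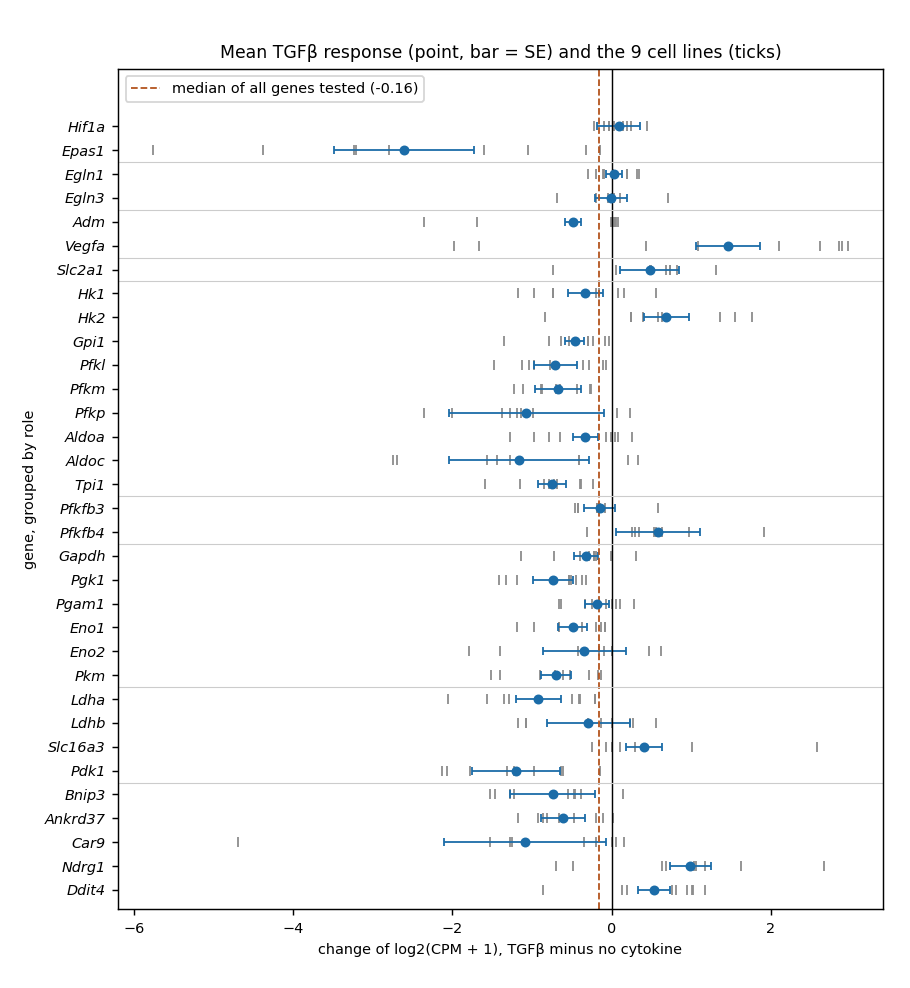
Change of log2(CPM + 1) with TGFβ for the 33 tested members, grouped by role; points are the mean over genotypes with bars of 1 SE, grey ticks the 9 lines, and the dashed line the median of all genes (-0.16). Vegfa, Ndrg1 and Hk2 lie to the right, Epas1 furthest to the left, and 14 of the 15 glycolytic enzymes left of 0.

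**Figure D3:**
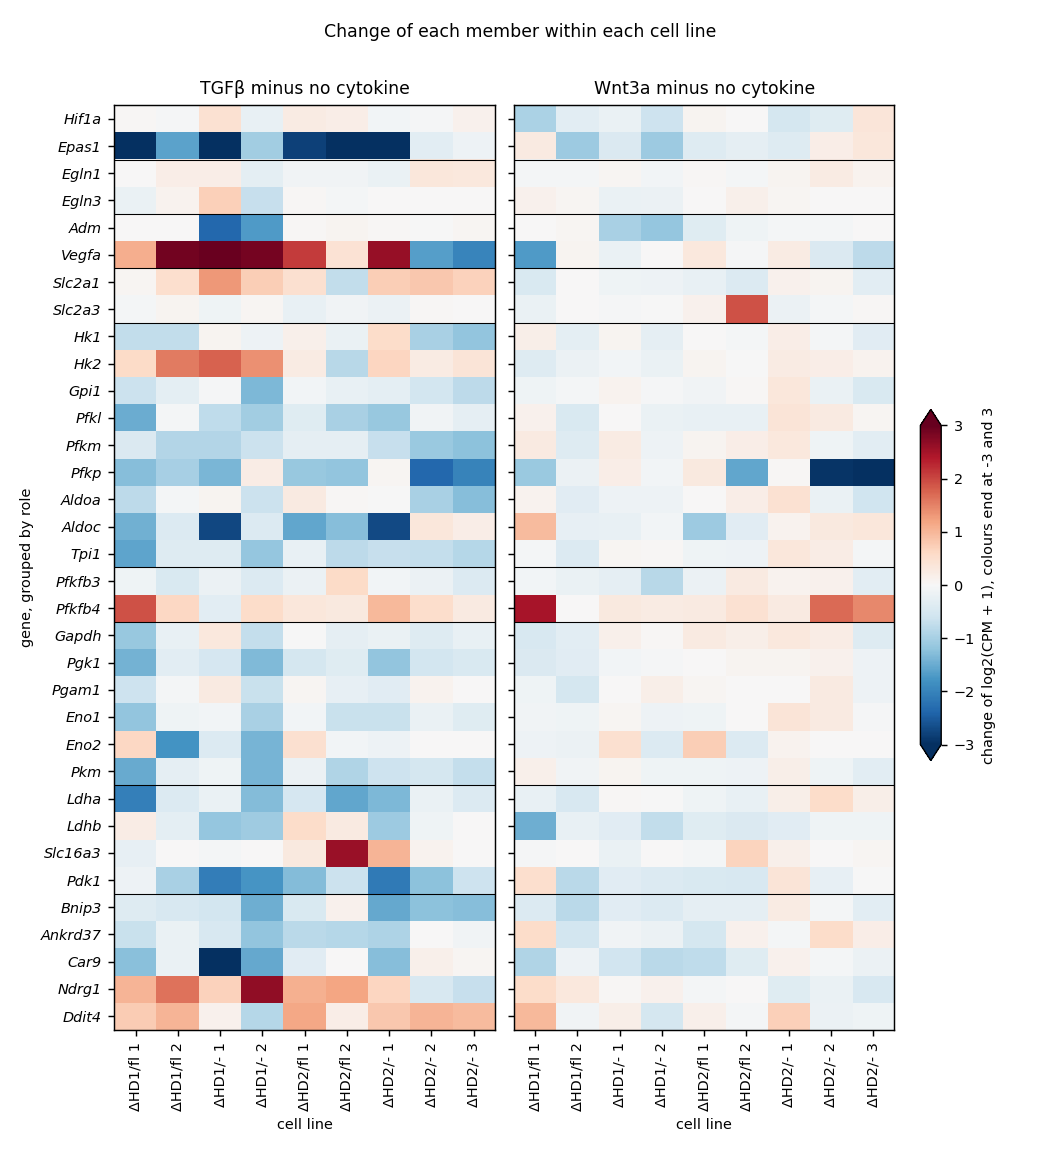
Change of log2(CPM + 1) within each of the 9 lines (columns) for all 34 members (rows, grouped by role), for TGFβ on the left and Wnt3a on the right, red higher and blue lower than without cytokine. The TGFβ panel shows Epas1 lower in 9 of 9 lines and Vegfa higher in 7 of 9, and the Wnt3a panel is mostly pale.

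Of the HIF alpha subunits, Epas1 was lower in 9 of 9 lines and Hif1a in 4. Hif1a was at 63.1 and 119 CPM in ΔHD1/fl, 53.8 and 167 in ΔHD1/-, 82.4 and 64 in ΔHD2/fl and 87.4, 69 and 49.2 in ΔHD2/- lines without cytokine. With TGFβ it was at 64.5 and 117 CPM in ΔHD1/fl, 73.9 and 143 in ΔHD1/-, 98.4 and 73 in ΔHD2/fl and 82.3, 67.7 and 54.4 in ΔHD2/- lines, so the ranges overlapped almost wholly. Its mean change was 0.09 ± 0.27 (SE; limma adjusted p 0.863). Epas1 was at 124 and 37.6 CPM in ΔHD1/fl, 206 and 20.4 in ΔHD1/-, 55.6 and 56.4 in ΔHD2/fl and 97.3, 1.08 and 1.13 in ΔHD2/- lines without cytokine. Under TGFβ it was at 12.3 and 11.8 CPM in ΔHD1/fl, 2.82 and 9.32 in ΔHD1/-, 7.14 and 5.22 in ΔHD2/fl and 3.71, 0.666 and 0.917 in ΔHD2/- lines. The difference was smallest in ΔHD2/- lines 2 and 3, which held about 1 CPM from the start. The mean change was -2.61 ± 0.88 (SE; limma adjusted p 0.0508), and Epas1 fell with the replicate block (adjusted p 0.00265) and in edgeR (adjusted p 0.038). Without ΔHD2/- lines 2 and 3 the change was -3.30 (limma adjusted p 0.0211).

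The prolyl hydroxylases, which mark the HIF alpha proteins for destruction, showed small changes. Egln1 was at 78.2 to 156 CPM without cytokine and 76.2 to 126 CPM with TGFβ, with a mean change of 0.03 ± 0.10 (SE; limma adjusted p 0.883). Egln3 was at 0.137 and 0 CPM in ΔHD1/fl, 0.342 and 2.76 in ΔHD1/-, 0.388 and 0.037 in ΔHD2/fl and 0, 0 and 0 in ΔHD2/- lines without cytokine. In the TGFβ libraries it was at 0 and 0.071 CPM in ΔHD1/fl, 1.19 and 1.33 in ΔHD1/-, 0.416 and 0 in ΔHD2/fl and 0, 0 and 0 in ΔHD2/- lines. It was higher in ΔHD1/- line 1 and lower in ΔHD1/- line 2, so the lines of this genotype moved in opposite directions, and its mean change of -0.01 ± 0.20 (SE; limma adjusted p 0.976) was 0.03 after scaling.

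Of the secreted factors Vegfa was called and Adm was not. Under TGFβ Vegfa was at 399 and 486 CPM in ΔHD1/fl, 494 and 769 in ΔHD1/-, 168 and 88.5 in ΔHD2/fl and 599, 170 and 152 in ΔHD2/- lines. Compared with the untreated values above, it was higher in 7 of 9 lines, by 0.43 to 2.97 on the log2 scale, and lower in ΔHD2/- lines 2 and 3, by 1.66 and 1.98. Those lines had the highest untreated levels, and with TGFβ they fell inside the range of the others. The mean rise was 1.46 ± 0.40 (SE; limma adjusted p 0.0185), and it was 2.20 without lines 2 and 3 (limma adjusted p 0.00217). The call was lost when 1 of 4 lines was left out: ΔHD1/fl line 2 (1.23, limma adjusted p 0.078), ΔHD1/- line 1 (1.44, 0.0589), ΔHD1/- line 2 (1.47, 0.0543) or ΔHD2/fl line 1 (1.25, 0.121). Over the alternatives with 1 line left out the change stayed between 1.09 and 1.68.

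Adm under TGFβ was at 0 and 0 CPM in ΔHD1/fl, 0.0397 and 0.252 in ΔHD1/-, 0.416 and 0.249 in ΔHD2/fl and 0.0757, 0.037 and 0.0417 in ΔHD2/- lines. In the ΔHD1/- lines, the only ones with more than 9 untreated reads, 101 and 102 reads became 1 and 7. The mean change of -0.48 ± 0.10 (SE; limma adjusted p 0.00387, 0.063 without ΔHD2/- lines 2 and 3, 1 in edgeR) came from these 2 lines, which moved by -2.35 and -1.69, while the others moved by -0.01 to 0.08.

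Slc2a1 and Hk2 were each higher in 8 of 9 lines and were not called. With TGFβ Slc2a1 was at 190 and 224 CPM in ΔHD1/fl, 268 and 285 in ΔHD1/-, 160 and 83 in ΔHD2/fl and 365, 86.8 and 90.7 in ΔHD2/- lines. It was higher in 8 of 9 lines, all but ΔHD2/fl line 2, with a mean change of 0.48 ± 0.37 (SE; limma adjusted p 0.4, 0.00515 with the replicate block). Hk2, the hexokinase that HIF and insulin induce, was at 92.8 and 25.4 CPM in ΔHD1/fl, 45.2 and 59.7 in ΔHD1/-, 63.7 and 48.7 in ΔHD2/fl and 51.2, 36.1 and 33.2 in ΔHD2/- lines without cytokine. It was at 139 and 76.4 CPM in ΔHD1/fl, 156 and 154 in ΔHD1/-, 75.2 and 27 in ΔHD2/fl and 80.3, 42.7 and 43.8 in ΔHD2/- lines with TGFβ. The same 8 lines were higher, most in ΔHD1/- line 1 (1.76) and least in ΔHD2/fl line 1 and ΔHD2/- line 2 (0.24 each). The mean change of 0.69 ± 0.28 (SE; limma adjusted p 0.103, 0.000631 with the block) stayed under the limit of 1. The more abundant Hk1 was higher in 3 of 9 lines, with a mean change of -0.33 ± 0.22 (SE; limma adjusted p 0.319) that was -0.16 after scaling and -0.06 without ΔHD2/- lines 2 and 3.

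The enzymes after hexokinase had mean changes below 0. Of the 15 glycolytic enzymes from Hk1 to Pkm, 14 had a mean change below 0 under both scalings, and Hk2 was the exception. Their median change was -0.49, or -0.32 after scaling, beside -0.16 and -0.02 for all genes. None was called without the block, and Pfkp and Aldoc were called with it. Gpi1, Pfkl, Pfkm, Tpi1, Pgk1, Eno1 and Pkm were lower in 9 of 9 lines, and 4 of the 15 were lower in 9 of 9 lines also relative to the median gene of each line. Tpi1 (triose phosphate isomerase) changed from 381 to 1100 CPM to 241 to 552 CPM, a mean of -0.75 ± 0.18 (SE; limma adjusted p 0.00818, 0.0526 after scaling and 0.0898 without ΔHD2/- lines 2 and 3), and Pkm from 2898 to 5448 CPM to 1008 to 3840 CPM, a mean of -0.70 ± 0.19 (SE; limma adjusted p 0.0201, 0.0897 after scaling and 0.133 without the pair). Pgk1 (-0.74 ± 0.25 SE; limma adjusted p 0.0472) and Gpi1 (-0.46 ± 0.12 SE; 0.0165) also passed the adjusted p but not the fold limit, and did not pass it after scaling (0.141 and 0.161) or without ΔHD2/- lines 2 and 3 (0.141 and 0.153). With the block the limma adjusted p of Tpi1, Pkm, Pgk1 and Gpi1 was 0.000985, 0.00392, 0.00083 and 0.00852. With the block and scaling it was 0.00778, 0.0238, 0.00382 and 0.0906. Gapdh (-0.32), Pgam1 (-0.18), Aldoa (-0.33) and Eno2 (-0.34) had limma adjusted p of 0.148 to 0.699, and the change of Aldoa was -0.14 without those lines. With 1 line left out these changes stayed below 0 but shrank to -0.20 for Gapdh and -0.06 for Pgam1 (both without ΔHD1/- line 2) and to -0.04 for Eno2 (without ΔHD1/fl line 2).

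Among the phosphofructokinases, Pfkm, the muscle type, was at 138 and 148 CPM in ΔHD1/fl, 57.1 and 180 in ΔHD1/-, 39.6 and 40.8 in ΔHD2/fl and 43.9, 107 and 112 in ΔHD2/- lines without cytokine. After 4 days of TGFβ it was at 102 and 80.2 CPM in ΔHD1/fl, 30.7 and 115 in ΔHD1/-, 32.6 and 34 in ΔHD2/fl and 26.7, 49.2 and 47.6 in ΔHD2/- lines. Its change was -0.26 to -1.22 in the 9 lines and -0.67 ± 0.29 (SE) on average (limma adjusted p 0.12, 7.5e-05 with the block), which is under the fold limit. Pfkp with TGFβ was at 19.6 and 103 CPM in ΔHD1/fl, 4.25 and 154 in ΔHD1/-, 5.67 and 32.7 in ΔHD2/fl and 93.7, 3.25 and 4.04 in ΔHD2/- lines. It was lower in 7 of 9 lines and higher in ΔHD1/- line 2 and ΔHD2/- line 1; the mean was -1.07 ± 0.97 (SE; limma adjusted p 0.483), and it fell with the block (adjusted p 0.0184). Without the block the mean was -0.70 when ΔHD2/- lines 2 and 3 were left out and -0.87 without ΔHD1/- line 1.

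Aldoc, the brain-type aldolase, was at 14.7 and 0.895 CPM in ΔHD1/fl, 19.4 and 1.1 in ΔHD1/-, 9.35 and 6.4 in ΔHD2/fl and 32.5, 0.18 and 0.335 in ΔHD2/- lines without cytokine. Its levels with TGFβ were 4.79 and 0.426 CPM in ΔHD1/fl, 2.06 and 0.576 in ΔHD1/-, 2.49 and 2.06 in ΔHD2/fl and 4.16, 0.481 and 0.542 in ΔHD2/- lines. The lines with more than 6 CPM at the start were the ones with the clearest decreases, and ΔHD2/- lines 2 and 3 stayed below 1 CPM. The mean change was -1.16 ± 0.88 (SE; limma adjusted p 0.391), and Aldoc fell with the block (adjusted p 0.0181). Without ΔHD1/- line 1 the mean was -0.87.

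Of the regulators of phosphofructokinase, the members Pfkfb3 and Pfkfb4 were not called, whereas Pfkfb2, which is no member, was lower in 9 of 9 lines. Pfkfb3, which makes the activator fructose 2,6-bisphosphate, was at 22.6 and 20.5 CPM in ΔHD1/fl, 19.1 and 19.7 in ΔHD1/-, 18.3 and 10.7 in ΔHD2/fl and 11, 5.76 and 6.66 in ΔHD2/- lines without cytokine. TGFβ-treated lines held 20.4 and 14.6 CPM in ΔHD1/fl, 16.8 and 14.5 in ΔHD1/-, 16.2 and 16.5 in ΔHD2/fl and 10.3, 4.99 and 4.71 in ΔHD2/- lines, lower in 8 of 9 lines by small amounts and higher in ΔHD2/fl line 2. Its mean change was -0.15 ± 0.19 (SE; limma adjusted p 0.614) and turned to 0.01 after scaling. Pfkfb4 was higher in 8 of 9 lines, with 0.58 ± 0.53 (SE; limma adjusted p 0.488).

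Summed over the 15 enzymes, glycolytic transcripts made up 0.599 to 1.04% of reads without cytokine (median 0.762%) and 0.291 to 0.694% with TGFβ (median 0.517%). The TGFβ sum was 0.449 to 0.939 of the untreated sum (median 0.652), below 1 in 9 of 9 lines and, after scaling, in 7 of 9. The ratio was lowest in ΔHD1/fl line 1 (0.449) and ΔHD1/- line 2 (0.496), and it was close to 1 in ΔHD1/- line 1 (0.937) and ΔHD2/fl line 1 (0.939), which were the 2 lines above 1 after scaling. The ratios of the ΔHD1/- lines thus lay near both ends of the range. Pkm gave much of the sum; without it, 8 of 9 lines were below 1, with a median of 0.787. In bulk samples less RNA per cell and fewer cells with this RNA cannot be told apart.

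**Figure D4:**
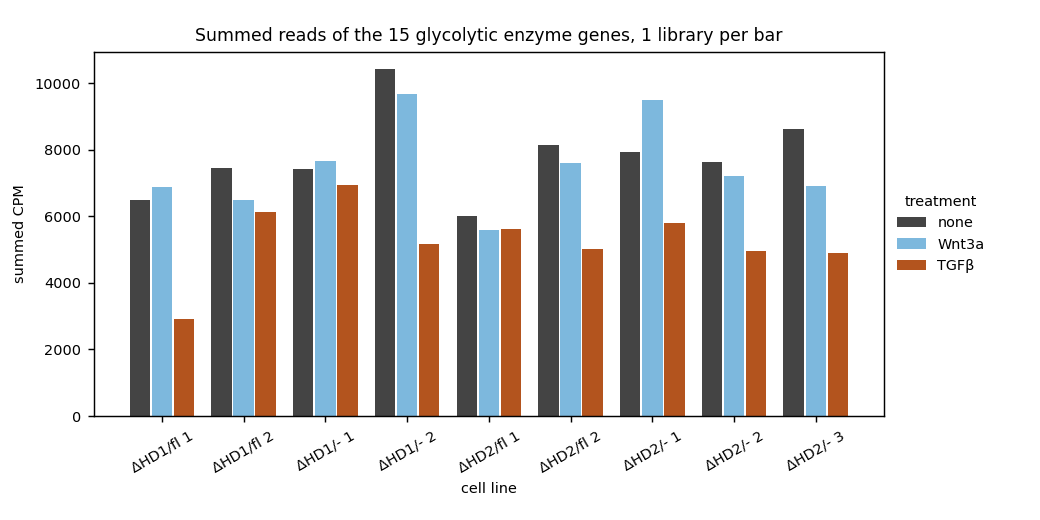
Summed CPM of the 15 glycolytic enzyme genes from Hk1 to Pkm in each line (1 library per bar, no error bars) without cytokine, with Wnt3a and with TGFβ. The TGFβ bar is the lower of the untreated and TGFβ bars in every line, least so in ΔHD1/- line 1 and ΔHD2/fl line 1.

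Of the genes that handle pyruvate and lactate, Ldha and Pdk1 were lower in 9 of 9 lines, Ldhb in 6 and Slc16a3 in 2. Ldha was at 1931 and 1823 CPM in ΔHD1/fl, 1109 and 3134 in ΔHD1/-, 976 and 1515 in ΔHD2/fl and 1894, 787 and 929 in ΔHD2/- lines without cytokine. With TGFβ it was at 461 and 1373 CPM in ΔHD1/fl, 956 and 1280 in ΔHD1/-, 689 and 509 in ΔHD2/fl and 745, 681 and 703 in ΔHD2/- lines. The change was -0.21 to -2.06 on the log2 scale, with a mean of -0.92 ± 0.28 (SE; limma adjusted p 0.0306). It was -0.75 after scaling (adjusted p 0.0958) and -1.09 without ΔHD2/- lines 2 and 3 (adjusted p 0.0707). For Ldha the limma adjusted p was 0.00315 with the block and 0.0113 with the block and scaling. Pdk1 with TGFβ was at 5.34 and 25.4 CPM in ΔHD1/fl, 3.69 and 32.9 in ΔHD1/-, 5.14 and 14.5 in ΔHD2/fl and 3.78, 3.11 and 4.79 in ΔHD2/- lines. Its mean change was -1.20 ± 0.55 (SE; limma adjusted p 0.145), and it fell with the block (adjusted p 0.000313). The lines with high untreated Pdk1 remained the highest with TGFβ.

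Ldhb was at 21.1 and 0.781 CPM in ΔHD1/fl, 6.99 and 11 in ΔHD1/-, 38.2 and 36 in ΔHD2/fl and 1.25, 0.037 and 0.0834 in ΔHD2/- lines with TGFβ, 3 lines higher and 6 lower, and its mean change was -0.29 ± 0.52 (SE; limma adjusted p 0.752), or -0.46 without ΔHD2/- lines 2 and 3. Slc16a3, the exporter of lactate, had 4 and 0 reads in ΔHD1/fl, 6 and 0 in ΔHD1/-, 3 and 1 in ΔHD2/fl and 1, 0 and 0 in ΔHD2/- lines without cytokine. With TGFβ it had 0 and 0 reads in ΔHD1/fl, 5 and 0 in ΔHD1/-, 10 and 147 in ΔHD2/fl and 29, 2 and 0 in ΔHD2/- lines. Only ΔHD2/fl line 2 (5.22 CPM) and ΔHD2/- line 1 (1.1 CPM) passed 1 CPM, so the gene passed the filter through TGFβ libraries. The mean change was 0.41 ± 0.23 (SE; limma adjusted p 0.224), and 0.13 without ΔHD2/fl line 2.

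**Figure D5:**
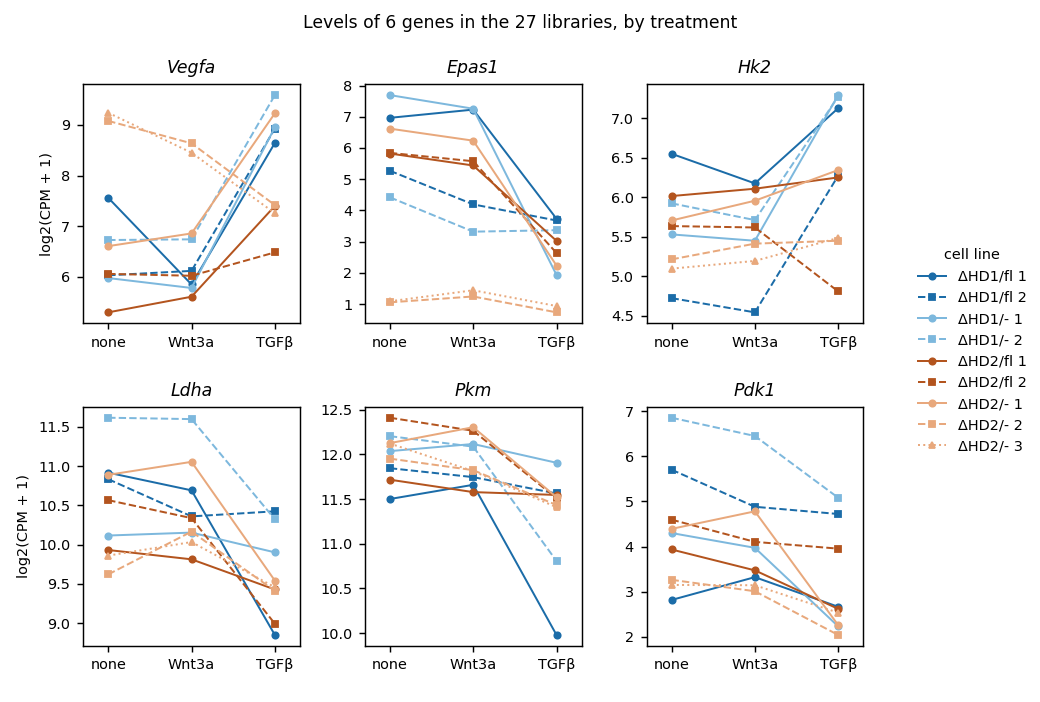
Levels (log2(CPM + 1)) of 6 members without cytokine, with Wnt3a and with TGFβ; each line joins the 3 libraries of 1 cell line, with colour for genotype and dash for line number. Vegfa rises in 7 lines and drops in ΔHD2/- lines 2 and 3, Epas1, Ldha, Pkm and Pdk1 are lower with TGFβ in all 9, and Hk2 is higher in 8.

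The 5 other hypoxia-response genes had mean changes on both sides of 0, and of these Car9 was called, with the block. Bnip3 was at 1.6 and 10.4 CPM in ΔHD1/fl, 5.84 and 32.6 in ΔHD1/-, 2.57 and 3.73 in ΔHD2/fl and 1.44, 3.73 and 3.42 in ΔHD2/- lines with TGFβ, lower in 8 of 9 lines (mean -0.74 ± 0.53 SE; limma adjusted p 0.361, 0.000443 with the block, under the fold limit). Car9, the surface carbonic anhydrase that is a standard hypoxia marker, was at 2.79 and 0.186 CPM in ΔHD1/fl, 48.4 and 2.32 in ΔHD1/-, 14.7 and 2.74 in ΔHD2/fl and 51.6, 0.0901 and 0.167 in ΔHD2/- lines without cytokine. In the TGFβ libraries it was at 0.589 and 0.0355 CPM in ΔHD1/fl, 0.913 and 0.144 in ΔHD1/-, 11.4 and 2.77 in ΔHD2/fl and 20.7, 0.222 and 0.208 in ΔHD2/- lines. It was lower in 6 of 9 lines, most in ΔHD1/- line 1 (-4.69), with a mean of -1.09 ± 1.02 (SE; limma adjusted p 0.501), and it fell with the block (adjusted p 0.0119). Without ΔHD1/- line 1 the mean was -0.69. Ankrd37 was lower in 8 of 9 lines (-0.61 ± 0.28 SE; limma adjusted p 0.153).

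Ndrg1, a stress- and differentiation-linked gene, was at 253 and 115 CPM in ΔHD1/fl, 165 and 147 in ΔHD1/-, 118 and 73.2 in ΔHD2/fl and 193, 311 and 341 in ΔHD2/- lines without cytokine. After 4 days of TGFβ it was at 519 and 359 CPM in ΔHD1/fl, 265 and 937 in ΔHD1/-, 247 and 167 in ΔHD2/fl and 300, 222 and 209 in ΔHD2/- lines. It was higher in 7 of 9 lines and lower in ΔHD2/- lines 2 and 3, the same pair as for Vegfa. The mean change of 0.99 ± 0.26 (SE; limma adjusted p 0.0158, 0.0512 without that pair) lay just under the fold limit, and it was called after median-of-ratios scaling (1.16; 4.78% of all genes called) and in edgeR (1.19; adjusted p 0.00802; 6.44% of all genes called). Ddit4, an inhibitor of mTORC1, was at 155 and 141 CPM in ΔHD1/fl, 357 and 300 in ΔHD1/-, 256 and 308 in ΔHD2/fl and 302, 448 and 455 in ΔHD2/- lines without cytokine. Its levels with TGFβ were 264 and 288 CPM in ΔHD1/fl, 390 and 165 in ΔHD1/-, 578 and 353 in ΔHD2/fl and 530, 903 and 877 in ΔHD2/- lines. It was higher in 8 of 9 lines, all but ΔHD1/- line 2, with 0.53 ± 0.20 (SE; limma adjusted p 0.0822). Beside these changes, the epithelial markers summed to 37.6 to 6672 CPM with TGFβ, and 3 of 6 (Cdh1, Krt5 and Krt14) fell with the block, whereas Krt8 (0.64) and Krt18 (0.90) were higher in 7 of 9 lines and not called. The 6 fibroblast markers summed to 3.77 to 4515 CPM, and Col1a1 was the 1 called with the block, higher. Their part in the members' changes was not tested.

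The promoters of several of these genes carry the DNA core that HIF binds. The 250 bases before the annotated starts (RefSeq, GRCm38.p6) were searched for ACGTG or GCGTG on either strand, which read CACGT or CACGC where the match lies on the other strand; CACGTG, also an E-box, counts on both. Of the 31 members with a promoter given, 28 (90.3%) held at least 1 match in any of their promoters, beside 61.2% of the 10461 tested genes with a promoter. Counted per promoter, the shares were 80% of 45 and 55.2%, and 38.6% of all 32851. Those of 5 members are printed 5′ to 3′ on the strand of the gene, with matches in capitals: Ldha, Pgk1 and Pdk1, which were lower with TGFβ in all lines, Hk2, which was higher in 8 lines, and Adm, which had 0 untreated reads in ΔHD1/fl lines and 101 and 102 in ΔHD1/- lines. The windows are those of Ldha (chr7:46845554-46845803, plus strand), Pgk1 (chrX:106186850-106187099, plus strand), Pdk1 (chr2:71872974-71873223, plus strand), Hk2 (chr6:82774455-82774704, minus strand) and Adm (chr7:110627407-110627656, plus strand).
Ldha: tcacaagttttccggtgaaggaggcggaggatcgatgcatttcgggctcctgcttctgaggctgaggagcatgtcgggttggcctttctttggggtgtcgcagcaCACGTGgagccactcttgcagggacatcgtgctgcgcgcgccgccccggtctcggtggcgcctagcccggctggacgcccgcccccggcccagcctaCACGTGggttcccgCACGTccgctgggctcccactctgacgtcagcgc
Pgk1: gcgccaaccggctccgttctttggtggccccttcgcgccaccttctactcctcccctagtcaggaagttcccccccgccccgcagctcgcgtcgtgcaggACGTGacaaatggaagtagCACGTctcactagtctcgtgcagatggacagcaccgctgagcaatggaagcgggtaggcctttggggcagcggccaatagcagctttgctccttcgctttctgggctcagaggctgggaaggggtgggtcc
Pdk1: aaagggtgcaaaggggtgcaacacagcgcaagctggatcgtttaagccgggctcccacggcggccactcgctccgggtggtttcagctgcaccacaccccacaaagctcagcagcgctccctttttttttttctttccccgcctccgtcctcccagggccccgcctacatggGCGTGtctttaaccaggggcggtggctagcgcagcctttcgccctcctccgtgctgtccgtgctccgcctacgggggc
Hk2: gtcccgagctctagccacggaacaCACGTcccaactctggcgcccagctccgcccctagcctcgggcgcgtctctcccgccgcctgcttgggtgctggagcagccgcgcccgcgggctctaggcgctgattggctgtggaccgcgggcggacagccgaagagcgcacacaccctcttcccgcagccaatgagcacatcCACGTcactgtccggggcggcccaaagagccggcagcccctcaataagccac
Adm: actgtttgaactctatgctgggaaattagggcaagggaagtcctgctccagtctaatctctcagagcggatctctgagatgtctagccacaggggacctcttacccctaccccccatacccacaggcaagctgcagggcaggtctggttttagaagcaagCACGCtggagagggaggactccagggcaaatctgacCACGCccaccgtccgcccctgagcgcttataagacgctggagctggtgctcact
The Ldha window, before a start inside the annotated gene, holds 5 matches, 4 of them as a pair of CACGTG, and the others 2, 1, 2 and 2 in the order printed. Genes that were lower and the gene that was higher with TGFβ both hold the core, and a match is a match of letters only. Of the windows not printed, that before the outermost Vegfa start has 0 matches and that before an inner Vegfa start 2, and the other windows of Ldha and Pdk1 have 1 and 0.

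Within single genotypes 0 or 1 members were called without the block, and 1 to 9 with it. In ΔHD1/fl lines 0 of 33 were called in limma and 0 in edgeR, beside 0.211% of all genes, with 6 members at an unadjusted p under 0.05 in limma and 3 in edgeR; with the block Hk2 was called (log2 change 1.07, adjusted p 0.0212; 3.03% beside 5.42%). In ΔHD1/- lines 1 was called (3.03%, beside 1.43%), Adm, with a change of -2.02 ± 0.21 (SE; limma adjusted p 0.00037; 0.136 in edgeR). Since Adm passed the filter through these same libraries, the call is a description of its reads. With the block 9 were called there (27.3%, beside 9.33%): Vegfa (2.92), Slc2a1 (1.02), Hk2 (1.56) and Ndrg1 (1.67) rose, and Adm (-2.02), Ldhb (-1.12), Pdk1 (-1.92), Bnip3 (-1.01) and Car9 (-3.11) fell. In ΔHD2/fl lines 0 were called in limma and 0 in edgeR, beside 0.286%, with 1 member at an unadjusted p under 0.05 in each; with the block Slc16a3 was called (1.44, adjusted p 0.0372; beside 5.24%), which rests on the 147 reads of line 2 and on a filter passed through TGFβ libraries. In ΔHD2/- lines 0 were called in limma and 0 in edgeR, beside 0.806%, with 4 and 2 members at an unadjusted p under 0.05. With the block Pfkm (-1.01), Pdk1 (-1.32) and Bnip3 (-1.35) fell there (9.09%, beside 6.03%). After scaling the block still called Pdk1 and Bnip3 there, lost Pfkm and added Ddit4, higher, and in ΔHD1/- lines it lost Ldhb and Bnip3.

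A gene called in 1 genotype and not in another need not differ between them, so the difference in response was tested. For ΔHD1/- against ΔHD1/fl lines 1 of 33 members was called (3.03%, beside 0.00754% of all genes), Adm, with a fitted difference of -2.02 ± 0.30 (SE; limma adjusted p 0.0439; 1 in edgeR). ΔHD1/fl lines had 0 reads of Adm under both conditions, so no response could be measured there and the value repeats the change in ΔHD1/- lines. It does not show that the responses differed, and nothing is read from the count. The call was lost without any 1 of the 2 ΔHD1/fl, 2 ΔHD2/fl or 3 ΔHD2/- lines (0 called), and kept without either ΔHD1/- line. For ΔHD2/- against ΔHD2/fl lines 0 members were called in limma, 0 in edgeR, and 0 had an unadjusted p under 0.05 in either, beside 0.0301% called of all genes.

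The same comparison was made for Wnt3a, with which no member was called. Wnt3a libraries were at 3 days and untreated ones at 4 days, so Wnt3a and culture time cannot be told apart here. Over the mean of the genotypes 0 of 33 members were called in limma, 0 with the block and 0 in edgeR, beside 0.0226% of all genes in limma and 0.241% with the block; 1 member had an unadjusted p under 0.05 in limma (Adm), 6 with the block and 0 in edgeR. The members' median change was -0.05, and that of all genes -0.06. The largest mean changes were those of Pfkp (-0.82 ± 0.97 SE; limma adjusted p 1; -0.30 without ΔHD2/- lines 2 and 3) and Pfkfb4 (0.75 ± 0.53 SE; limma adjusted p 1; 0.45 without ΔHD1/fl line 1). Pfkfb4 was higher in 9 of 9 lines, by 0.02 to 2.47, with 7.5 CPM becoming 46.1 CPM in ΔHD1/fl line 1. Pfkp was lower by 2.94 and 3.21 in ΔHD2/- lines 2 and 3, from 20.7 and 19.2 CPM to 1.83 and 1.18 CPM, and it was also lower by 1.56 in ΔHD2/fl line 2 and by 1.12 in ΔHD1/fl line 1. Ldhb was lower in 9 of 9 lines (-0.50 ± 0.52 SE; limma adjusted p 1). The summed glycolytic enzymes with Wnt3a were 0.801 to 1.2 of the untreated sum (median 0.935).

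In single genotypes Wnt3a gave 0 called members in ΔHD1/fl (beside 0.0151% of all genes), ΔHD1/- (0.00754%), ΔHD2/fl (0.113%) and ΔHD2/- lines (0.00754%), in limma and in edgeR. In limma 1 member had an unadjusted p under 0.05 in ΔHD1/- lines and 0 in the others, and in edgeR 0 in each. Adm in ΔHD1/- lines went from 101 and 102 reads to 49 and 20. The difference in response to Wnt3a was called for 0 members for ΔHD1 (beside 0%) and 0 for ΔHD2 (beside 0.0151%) in limma and in edgeR, with 1 and 0 members at an unadjusted p under 0.05 in limma and 0 in edgeR. Slc2a3, outside the tests, had 90 reads (3.57 CPM) with Wnt3a in ΔHD2/fl line 2 and at most 7 in every other library.

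Neighbouring parts of the pathway are given for comparison, from lists of genes that are no members. Of 7 tested HIF partners and regulators 1 was called with TGFβ (14.3%, beside 5.42% of all genes), Cited2, a competitor of HIF for its coactivator, which rose by 1.07 ± 0.19 (SE; limma adjusted p 0.001) in 9 of 9 lines. Arnt (-0.50), Egln2 (-0.55), Vhl (-0.39) and Hif1an (-0.25) were lower in 9, 9, 8 and 8 lines. Arnt2 was higher in 8 lines (1.0 ± 0.55 SE; limma adjusted p 0.224, 0.00474 with the block, not called) and Siah2 in 7 (0.11). Of 20 further hypoxia-induced genes 2 were called (10.0%), both higher: Bhlhe40 (2.01), a repressor of transcription, and Ier3 (1.15). With the block 5 of the 20 were called (beside 8.92% of all genes). Of these 4 rose, P4ha2 (1.18) and Plod2 (1.83), which modify collagen, among them, and Car12 (-1.06, or -0.97 and so under the fold limit after scaling) fell.

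In the lists of other arms of glucose use 2 genes were called, both lower, and after scaling both changes were under the fold limit. Of 11 tested side steps and further isozymes of glycolysis, Pfkfb2 fell (-1.12 ± 0.25 SE; limma adjusted p 0.00594; -0.95 after scaling). Of 7 genes of the pentose phosphate pathway G6pdx, which commits glucose 6-phosphate to it, fell by 1.15 ± 0.19 (SE; limma adjusted p 0.000706; -0.98 after scaling) in 9 of 9 lines, and the median of the list was -0.50 (-0.32 after scaling). Of 18 genes of pyruvate dehydrogenase and the citrate cycle 0 were called by limma or with the block, and 5 (Mpc1, Pdhb, Suclg1, Sdha and Fh1) had a limma adjusted p of at most 0.05 with changes under the fold limit (27.8%, beside 16.8% of all genes), and 0 after scaling. The median was -0.35, or -0.18 after scaling. With Wnt3a 0 genes of any of these lists were called.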

How the data were processed

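RNA was sequenced from 27 libraries of 9 cell lines (TruSeq stranded mRNA kit). Per the submitters' processing notes and the study's methods, the authors aligned reads to mm10 with STAR, kept uniquely mapped reads, counted them per RefSeq gene and deposited CPM values, that is reads for each 1 M reads assigned to genes. Whether the counting used strand is not given in the sources used here, so genes that overlap another on the opposite strand (among them Adm, Hk1, Pfkp, Pfkm, Aldoa and Tpi1) may hold some of its reads. CPM steps gave whole reads for 100% of values (tolerance 0.01) and a depth of 21.86 to 33.69 M reads (median 25.96). Of 24454 identifiers 24374 matched a symbol and 80 did not.

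The 13270 genes that reached 1 CPM in 2 or more libraries entered limma 3.58.1 in R 4.3.3 (trend and robust) on log2(CPM + 1) with 12 group means. A call needed a p of 0.05 or less after Benjamini-Hochberg adjustment over all genes tested, and a log2 change of 1 or more in either direction. Fold changes on this scale understate those of low genes. Alternatives were cell line as a replicate block (statmod 1.5.0), edgeR 4.0.16 on the recovered reads, median-of-ratios scaling, a pseudocount of 0.1, no filter, no fold limit, an unadjusted p with 1.5-fold, the compared groups alone, ΔHD2/- lines 2 and 3 averaged, and each line left out. Leaving out both those lines, and the block with median-of-ratios scaling, were added after the data were seen. For changes with a cytokine the block joins the treatments of 1 line, as the labels number the lines. The deviations of same-line libraries from their group means correlated at 0.509 to 0.94. For recombined against fl lines without cytokine the block instead joins same-numbered lines within ΔHD1 and within ΔHD2, which the labels do not pair. Tested on simulated data for the mean TGFβ response, the fit recovered 98.5% of 200 genes changed 4-fold among 12653 genes, with 0 false calls. The simulation gave every line the same fold and drew line differences with 1 set spread, not estimated from these data. The share recovered is therefore not the power of the tests above.

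The 34 members and the pathway lists were chosen with earlier results of these data known. From the lists 1 gene was left out of all list counts and is not reported here, and the genes not named are given in counts. Values in every line are given for members called in any comparison, with or without the block, and for Hif1a, Vegfa, Slc2a1, Pfkfb3, Ldha, Pdk1, Egln3, Adm and Car9. Other members are given by range, count or examples. Because lines are the replicates, p-values without the block set a change against the spread between lines, which includes their differences in level. With the block, p-values of cytokine changes set it against the spread of the change between lines of a genotype.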

Additional observations from a re-analysis of the deposited data

Results flagged for a closer look

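Of 66 responses of members to TGFβ or Wnt3a, 5 had 1 line far from the other 8, where chance would give about 3.3. Pfkfb3 changed by 0.58 with TGFβ in ΔHD2/fl line 2 and by -0.46 to -0.08 in the other lines. In the same line Slc16a3 changed by 2.58 with TGFβ (-0.24 to 1.01 in the others) and by 0.66 with Wnt3a (-0.19 to 0.15). Car9 changed by -4.69 with TGFβ in ΔHD1/- line 1 (-1.53 to 0.16 in the others), where it went from 48.4 to 0.913 CPM. Ldhb changed by -1.46 with Wnt3a in ΔHD1/fl line 1 (-0.74 to -0.12 in the others). For Adm the test of the difference in TGFβ response between ΔHD1/- and ΔHD1/fl lines gave -2.02 (limma adjusted p 0.0439, 0.000345 to 1 over the alternatives). Both ΔHD1/fl lines had 0 reads without cytokine and with TGFβ, so no response could be measured there, and the test does not show that the responses differed.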

How the results depend on the processing

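For the mean TGFβ response (1 member) the count was 8 without the fold limit, 12 with an unadjusted p and 1.5-fold, 2 with median-of-ratios scaling, with the compared groups alone, and with ΔHD2/- lines 2 and 3 averaged or left out, 3 in edgeR, 6 with the replicate block, 5 with the block and median-of-ratios scaling, and 0 to 2 with 1 line left out, the 0 without ΔHD2/fl line 1. For TGFβ in ΔHD1/fl lines (0) it was 6 with an unadjusted p, 1 with the replicate block and 1 with the block and scaling. In ΔHD1/- lines (1) it was 5 with an unadjusted p, 0 with the compared groups alone and in edgeR, 9 with the replicate block, 7 with the block and scaling, 2 with ΔHD2/- lines 2 and 3 left out, and 1 to 2 with 1 line left out. In ΔHD2/fl lines (0) it was 1 with an unadjusted p, 1 with the replicate block, with or without scaling, and 0 to 1 with 1 line left out. In ΔHD2/- lines (0) it was 3 with an unadjusted p, 3 with the replicate block, also with scaling, when Ddit4 took the place of Pfkm, and 0 to 1 with 1 line left out.

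The difference in TGFβ response for ΔHD1 (1) was 0 with a pseudocount of 0.1, with median-of-ratios scaling, with the compared groups alone, in edgeR, with ΔHD2/- lines 2 and 3 averaged or left out, and 0 to 1 with 1 line left out. For Wnt3a in ΔHD1/- lines (0) the count was 1 with an unadjusted p and 1 without the filter, and for the difference in Wnt3a response for ΔHD1 (0) it was 1 with an unadjusted p. For ΔHD1/- against ΔHD1/fl lines without cytokine (1) it was 3 with an unadjusted p, 0 with the compared groups alone and in edgeR, 2 with the replicate block, with or without scaling, and 1 to 2 with 1 line left out. For ΔHD2/- against ΔHD2/fl lines without cytokine (0) it was 5 with an unadjusted p and 0 to 7 with 1 line left out, the 7 without ΔHD2/- line 1. The cause of these moves was not tested.

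Between genotypes the line numbers pair nothing by the labels. Untreated deviations of same-numbered lines correlated at 0.472 for ΔHD1 and at 0.164 and 0.19 for ΔHD2, and the replicate block added Bnip3 for ΔHD1 and no member for ΔHD2. The block changed no other count than those given. Of 594 values of single members for the mean TGFβ response, 567 kept their direction and side of the threshold, 23 passed it newly, 4 no longer did and 0 called values turned; 9 uncalled values, of at most 0.16, changed sign. For Wnt3a 594 of 594 kept their side, and 73 uncalled values, of at most 0.12, changed sign. Members near the floor of 3 reads (0.089 to 0.137 CPM), such as Egln3, Slc16a3 and Slc2a3, could not be followed at this depth in most lines.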

Other observations

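Some values fit none of the comparisons above. By length-corrected level Pfkfb3 stood above Pfkfb4 in 8 of 9 untreated lines and in 5 of 9 with TGFβ, there at medians of 2.68 and 1.89 CPM per kilobase. Hk1 stayed above Hk2 in 9 of 9 lines under both conditions, but the median for Hk2 was 8.84 CPM per kilobase without cytokine and 13.9 with TGFβ, beside 75.2 and 74.4 for Hk1. Ldha stayed above Ldhb in 9 of 9 lines, at medians of 800.0 and 13.1 CPM per kilobase without cytokine and 371 and 5.36 with TGFβ. Eno2, the neuronal enolase, was at 19.6 CPM in untreated ΔHD1/fl line 2 and at 4.13 CPM or less in every other untreated line. ΔHD2/fl line 2 held the highest Slc16a3 reads with TGFβ (147) and the highest Slc2a3 reads with Wnt3a (90); these 2 features were chosen after their values were seen.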
